A study of Rattus norvegicus with 30 samples.

Results

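Mast cell genes were examined in the plantaris tendon of the rat, before and after the tendon was cut and sutured. The set held 7 genes that are widely used as mast cell genes, Cma1, Cpa3, Kit, Ms4a2, Hdc, Fcer1a and Gata2, taken by name from the count table, and 7 of 7 were among its 13124 genes. They were not selected by a measured value, but earlier results of these data were known when they were chosen. Control tendons came from Sprague Dawley rats that had no surgery and received no compound (n = 3). The other tendons came from Sprague Dawley rats that underwent plantaris tenotomy and repair and then received GSK2894631A, an inhibitor of hematopoietic prostaglandin D synthase, by gavage 2 times daily at 0, 2 or 6 mg/kg. They were collected 7 days after surgery (7D, with 5, 4 and 3 tendons at 0, 2 and 6 mg/kg) or 21 days after surgery (21D, with 5 tendons at each dose). All rats were 3-month-old males in the study's methods, and 1 library was made from 1 tendon. Whether controls were gavaged with vehicle is not given in the sources used here, so surgery and handling cannot be told apart. Whole tendons were sequenced with no sorting of cells, so fewer mast cells and less RNA per mast cell cannot be told apart.

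Mast cells are resident immune cells of connective tissue that mature locally from circulating progenitors. They store histamine and proteases bound to proteoglycan in granules, and they release them when allergen cross-links IgE held on the high-affinity IgE receptor. The growth factor SCF, acting on the receptor tyrosine kinase KIT, keeps them alive. Of the 7 genes, Cma1 encodes chymase, Cpa3 encodes carboxypeptidase A3 (both granule proteases), Hdc encodes the enzyme that makes histamine, Fcer1a and Ms4a2 encode the alpha and beta chains of the IgE receptor, Kit encodes the SCF receptor, and Gata2 encodes a zinc finger transcription factor that binds GATA motifs. Several are shared with other cells as background: Kit with progenitors and melanocytes, Gata2 with endothelium and progenitors, Hdc with basophils and neutrophils, Fcer1a with basophils and dendritic cells, and Cpa3 with basophils.

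The identifiers in the files, with the chromosome in the rn6 build, were ENSRNOG00000020563 on chromosome 15 for Cma1, ENSRNOG00000011181 on chromosome 2 for Cpa3, ENSRNOG00000002227 on chromosome 14 for Kit, ENSRNOG00000020993 on chromosome 1 for Ms4a2, ENSRNOG00000010262 on chromosome 3 for Hdc, ENSRNOG00000009177 on chromosome 13 for Fcer1a and ENSRNOG00000012347 on chromosome 4 for Gata2. Promoter windows of 250 bases before to 50 bases after the gene start were taken from RefSeq in the GRCr8 build for 6 of the 7 genes, all but Ms4a2. They were searched on both strands for GATAA, the letters at the core of a GATA motif, which read TTATC on the other strand, and for CANNTG, the letters of an E-box, because mast cell genes are known targets of GATA and E-box factors. Cma1, Cpa3 and Fcer1a held 1 GATA core each, and Kit, Hdc and Gata2 held 0. The match began 63 bases before the start in Cma1, 54 bases before it in Cpa3 and 93 bases before it in Fcer1a. Of all 33469 windows, 26.5% held a GATA core. CANNTG was found in Cpa3, Kit and Fcer1a and in 72.1% of all windows. A match describes letters only and was not tested as a binding site. The 3 windows with a GATA core, and that of Kit without one, read as follows on the strand of the gene, with GATAA or TTATC in capitals. They lie on the minus strand at chr15:33390084-33390383 for Cma1, chr2:104673188-104673487 for Cpa3 and chr13:88224630-88224929 for Fcer1a, and on the minus strand at chr14:32978763-32979062 for Kit.
Cma1: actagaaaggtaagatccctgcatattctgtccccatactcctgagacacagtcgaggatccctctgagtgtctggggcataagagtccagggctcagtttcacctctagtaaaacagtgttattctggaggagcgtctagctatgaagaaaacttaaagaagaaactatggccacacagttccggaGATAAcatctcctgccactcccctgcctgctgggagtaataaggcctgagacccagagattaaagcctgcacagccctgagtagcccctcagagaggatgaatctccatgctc
Cpa3: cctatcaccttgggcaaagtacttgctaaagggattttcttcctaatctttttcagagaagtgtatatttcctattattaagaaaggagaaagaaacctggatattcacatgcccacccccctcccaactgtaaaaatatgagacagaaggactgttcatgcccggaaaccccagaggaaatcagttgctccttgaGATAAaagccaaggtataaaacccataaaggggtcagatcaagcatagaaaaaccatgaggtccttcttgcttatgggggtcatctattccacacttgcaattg
Fcer1a: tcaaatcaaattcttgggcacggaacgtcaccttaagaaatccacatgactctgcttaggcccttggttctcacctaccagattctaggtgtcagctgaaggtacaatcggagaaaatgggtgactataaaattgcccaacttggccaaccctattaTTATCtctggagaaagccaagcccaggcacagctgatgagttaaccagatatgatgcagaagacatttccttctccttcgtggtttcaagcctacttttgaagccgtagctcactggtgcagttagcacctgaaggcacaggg
Kit: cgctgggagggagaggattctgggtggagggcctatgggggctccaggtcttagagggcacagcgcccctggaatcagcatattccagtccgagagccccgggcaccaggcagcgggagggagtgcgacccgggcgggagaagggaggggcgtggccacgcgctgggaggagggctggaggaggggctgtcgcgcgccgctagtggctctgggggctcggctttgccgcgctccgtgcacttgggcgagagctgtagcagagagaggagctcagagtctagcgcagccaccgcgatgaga

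Total counts were 12405741 to 49909374 per tendon over the genes listed. Counts were scaled to CPM, the usual measure of counts relative to library size, with TMM, and all values below are such CPM. A gene was called changed at a Benjamini-Hochberg adjusted p under 0.05 over 12558 genes in edgeR's quasi-likelihood test of all 30 tendons, and a log2 fold change is given ± its standard error. All 7 genes were among those tested. A floor of 3 counts was 0.0601 to 0.242 CPM, for counting error only. The share of counts on skeletal muscle genes was 17.3 to 24.9% for controls, 0.154 to 1.15% at 7D 0 mg/kg, 0.00796 to 0.0104% at 7D 2 and 6 mg/kg, and 0.0605 to 8.86% at 21D. TMM factors were 0.599 to 0.788 in controls and 0.9503 to 1.095 in repaired tendons. Alternatives to this scaling, and a covariate for the muscle share, are given with the dependence on the processing.

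Kit was higher than control in all 6 repaired groups, by 0.85 to 1.43 on the log2 scale. It was the only one of the 7 genes called in every one of them. Cma1 rose at 7D 2 mg/kg and Gata2 fell at 21D 2 and 6 mg/kg. The remaining genes did not pass the quasi-likelihood test with 3 controls, and the control tendons themselves disagreed. By limma-trend with 3 controls, each remaining gene was called higher in some or all 7D groups, beside 69.1 to 72.2% of all genes. Control replicate 3 held 9.85 to 37.3 times as much Cma1, Cpa3, Ms4a2 and Fcer1a as the higher of the other controls. Each comparison with control was therefore also run without it. These 4 genes were then called higher in 4 to 6 of the 6 repaired groups, beside 30.9 to 35.4% of all genes. That tendon was singled out by its high values of these 4 genes. Leaving it out therefore raises their differences by construction, and these calls are not separate evidence of a rise.

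Kit, the receptor for SCF, was 5.14, 12.9 and 13.1 CPM in control replicates 2, 3 and 4. At 7D it was 28.2, 27.0, 27.4, 28.0 and 25.3 CPM at 0 mg/kg, 19.4, 22.7, 27.6 and 16.9 CPM at 2 mg/kg, and 32.5, 23.9 and 27.2 CPM at 6 mg/kg. At 21D it was 24.4, 21.4, 21.4, 18.4 and 23.7 CPM at 0 mg/kg, 19.5, 12.1, 18.4, 17.5 and 25.7 CPM at 2 mg/kg, and 21.4, 23.3, 22.0, 21.5 and 20.7 CPM at 6 mg/kg. Every repaired tendon but 1, a 21D 2 mg/kg tendon at 12.1 CPM, lay above every control. Kit rose against control at 7D by 1.40 ± 0.23, 1.07 ± 0.23 and 1.43 ± 0.25 log2 at 0, 2 and 6 mg/kg, with adjusted p of 7.27e-06, 0.000265 and 1.66e-05. The rise at 21D was 1.08 ± 0.23, 0.85 ± 0.22 and 1.08 ± 0.23 log2, with adjusted p of 0.000189, 0.00161 and 0.00021. The 6 comparisons share the same 3 controls. The groups did not overlap in 5 of the 6, beside 61.9, 59.2 and 66.9% of all genes at 7D 0, 2 and 6 mg/kg and 52.8, 59.8 and 53.7% at 21D. From high to low, the means were 27.8 ± 4.35 CPM (SD, n = 3) at 7D 6 mg/kg, 27.2 ± 1.13 (n = 5) at 7D 0 mg/kg, 21.9 ± 2.35 (n = 5) at 21D 0 mg/kg, 21.8 ± 0.985 (n = 5) at 21D 6 mg/kg, 21.7 ± 4.62 (n = 4) at 7D 2 mg/kg, 18.6 ± 4.87 (n = 5) at 21D 2 mg/kg and 10.4 ± 4.52 (n = 3) in controls. Neighbours in this order differed by more than the larger SD only between 7D 0 and 21D 0 mg/kg and between 21D 2 mg/kg and control.

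**Figure D1:**
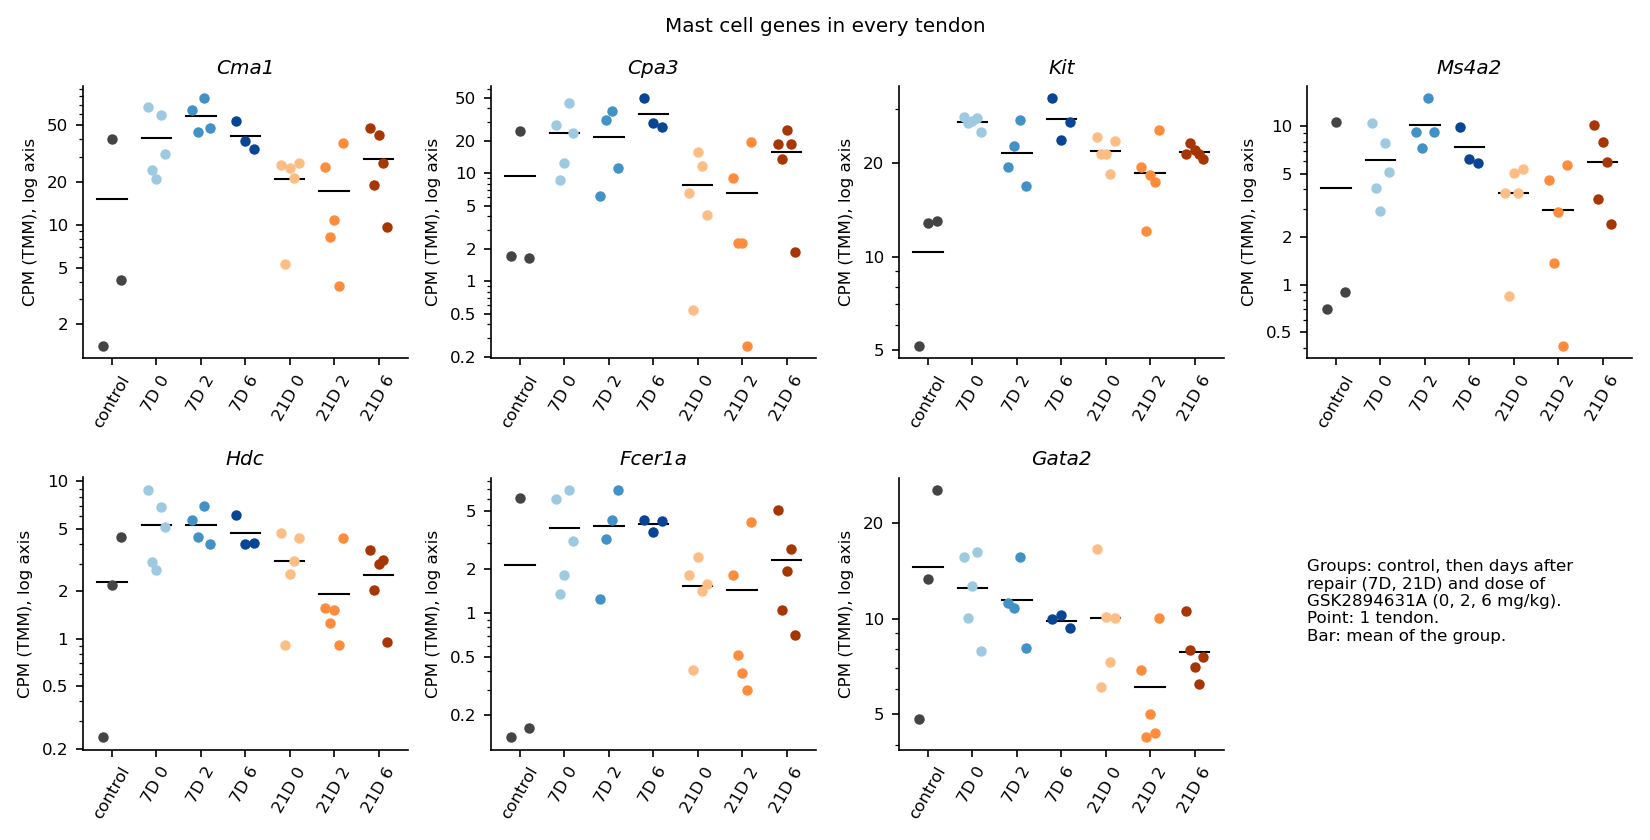
CPM of each of the 7 genes (log axis) in every tendon, by group, with the group mean as a bar. Kit in controls lies under nearly all repaired tendons, whereas for Cma1, Cpa3, Ms4a2 and Fcer1a 1 control tendon lies among the higher repaired tendons and the other 2 lie near or below the lowest repaired tendons.

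The granule proteases varied widely between tendons of a group. Cma1 was 1.42, 40.2 and 4.08 CPM in control replicates 2, 3 and 4. At 7D it was 67.7, 24.3, 21.0, 58.9 and 31.4 CPM at 0 mg/kg, 63.8, 45.1, 77.5 and 47.6 CPM at 2 mg/kg, and 53.7, 39.1 and 34.4 CPM at 6 mg/kg. At 21D it was 26.6, 5.29, 25.1, 21.3 and 27.1 CPM at 0 mg/kg, 25.3, 8.28, 10.9, 3.73 and 37.8 CPM at 2 mg/kg, and 47.6, 19.1, 42.7, 27.2 and 9.62 CPM at 6 mg/kg. The 7D 2 mg/kg tendons all lay above the highest control, and no other group did. Cma1 rose at 7D 2 mg/kg by 1.92 ± 0.81 log2 (adjusted p = 0.0388), and the other 5 differences from control were 0.15 to 1.46 log2 with adjusted p of 0.109 to 0.864. The call at 7D 2 mg/kg was lost without control replicate 2 (1.32 log2, adjusted p = 0.160), without control replicate 4 (1.43, adjusted p = 0.167), and without 7D 2 mg/kg replicate 2 (adjusted p = 0.0580) or 4 (adjusted p = 0.0731). It was also lost with only the groups compared (adjusted p = 0.126) and with the covariate for the muscle share (adjusted p = 0.0793). With 3 controls, limma-trend also called Cma1 higher at 7D 0, 7D 6 and 21D 6 mg/kg (adjusted p = 0.00545, 0.00766 and 0.0266). So did library sizes unscaled by TMM at 7D 0 and 6 mg/kg (adjusted p = 0.0349 and 0.0442). The covariate did at 7D 0 mg/kg (adjusted p = 0.0336). Beside these gained calls, 49.1 to 78.8% of all genes were called. Mean levels were 58.5 ± 15.1 CPM (SD, n = 4) at 7D 2 mg/kg, 42.4 ± 10.1 (n = 3) at 7D 6 mg/kg, 40.7 ± 21.3 (n = 5) at 7D 0 mg/kg, 29.3 ± 15.9 (n = 5) at 21D 6 mg/kg, 21.1 ± 9.12 (n = 5) at 21D 0 mg/kg, 17.2 ± 14.1 (n = 5) at 21D 2 mg/kg and 15.2 ± 21.7 (n = 3) in controls. Only the first pair of neighbours in this order differed by more than the larger SD.

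Cpa3, whose product trims peptides beside chymase in the granule, was 1.70, 24.8 and 1.63 CPM in control replicates 2, 3 and 4. Its 7D values were 28.2, 8.72, 12.5, 45.02 and 23.6 CPM at 0 mg/kg, 6.15, 31.01, 37.6 and 11.2 CPM at 2 mg/kg, and 49.4, 29.5 and 26.8 CPM at 6 mg/kg. Its 21D values were 6.57, 0.535, 15.7, 11.7 and 4.10 CPM at 0 mg/kg, 8.98, 2.24, 2.24, 0.251 and 19.3 CPM at 2 mg/kg, and 18.8, 13.7, 25.3, 18.7 and 1.87 CPM at 6 mg/kg. Within the 21D 2 mg/kg group the highest tendon held 76.7 times the lowest, the widest range of any of the 7 genes in any group. By the quasi-likelihood test Cpa3 was called in none of the 6 comparisons with control, with log2 differences of -0.54 to 1.88. The 7D 6 mg/kg tendons nevertheless all lay above the highest control (1.88 ± 1.14 log2, adjusted p = 0.146). In that group limma-trend called Cpa3 higher (3.01 log2, adjusted p = 0.0378), beside 69.1% of all genes. Its group means, from 35.2 ± 12.4 CPM (SD, n = 3) at 7D 6 mg/kg through 9.38 ± 13.4 (n = 3) in controls to 6.60 ± 7.82 (n = 5) at 21D 2 mg/kg, differed from the next in order by less than the larger SD at every step.

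The IgE receptor chains followed chymase. Ms4a2, the signal-amplifying beta chain, was 0.708, 10.6 and 0.899 CPM in control replicates 2, 3 and 4. In 7D tendons it was 10.4, 4.08, 2.91, 7.86 and 5.16 CPM at 0 mg/kg, 9.25, 7.32, 15.0 and 9.25 CPM at 2 mg/kg, and 9.94, 6.21 and 5.87 CPM at 6 mg/kg. In 21D tendons it was 3.80, 0.850, 5.03, 3.79 and 5.36 CPM at 0 mg/kg, 4.57, 1.38, 2.87, 0.411 and 5.65 CPM at 2 mg/kg, and 10.1, 3.45, 7.96, 5.98 and 2.41 CPM at 6 mg/kg. Controls and repaired tendons overlapped at every time and dose, and differences of -0.49 to 1.29 log2 were not called by the quasi-likelihood test. At 7D 2 mg/kg limma-trend called Ms4a2 higher (2.31 log2, adjusted p = 0.0122), beside 70.3% of all genes. With the replicate number as a block it was called there too (1.73 log2, adjusted p = 0.0489), beside 69.1%. The mean was highest at 7D 2 mg/kg, 10.2 ± 3.31 CPM (SD, n = 4), and lowest at 21D 2 mg/kg, 2.98 ± 2.17 CPM (n = 5), with 4.06 ± 5.65 CPM (n = 3) in controls, and every pair of neighbours in the order lay within the larger SD.

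Fcer1a, the chain that binds IgE itself, was 0.142, 6.09 and 0.163 CPM in control replicates 2, 3 and 4, where the first and last values rest on 3 and 2 counts. At 7D it was 6.01, 1.34, 1.82, 6.96 and 3.10 CPM at 0 mg/kg, 1.25, 3.22, 4.32 and 6.94 CPM at 2 mg/kg, and 4.31, 3.56 and 4.29 CPM at 6 mg/kg. At 21D it was 1.82, 0.409, 2.43, 1.43 and 1.58 CPM at 0 mg/kg, 1.82, 0.517, 0.389, 0.297 and 4.18 CPM at 2 mg/kg, and 5.04, 1.04, 1.95, 2.74 and 0.707 CPM at 6 mg/kg. Without TMM, the mean of Fcer1a reached the 3 CPM of the low-count filter only at 7D (4.10 to 4.32 CPM). It was 1.45 to 2.28 CPM at 21D and 1.67 CPM in controls. Fcer1a was thus tested only through the groups where it was high, so a higher level at 7D is not separate evidence of a rise. Control replicate 3 was among the highest 3 tendons of all 30, and the other 2 controls were the lowest of all. With all controls no difference was called by the quasi-likelihood test (-0.63 to 0.88 log2). By limma-trend with all controls, Fcer1a was called higher at 7D 0, 2 and 6 mg/kg. The differences were 2.30, 2.36 and 2.64 log2, with adjusted p of 0.0286, 0.0318 and 0.0262, beside 72.2, 70.3 and 69.1% of all genes. Means ran from 4.05 ± 0.426 CPM (SD, n = 3) at 7D 6 mg/kg to 1.44 ± 1.65 CPM (n = 5) at 21D 2 mg/kg, with 2.13 ± 3.43 CPM (n = 3) in controls, and no 2 neighbours in the order differed by more than the larger SD.

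Hdc, the histamine-forming enzyme, was 0.236, 2.21 and 4.41 CPM in control replicates 2, 3 and 4. At 7D it was 8.83, 3.07, 2.74, 6.84 and 5.11 CPM at 0 mg/kg, 5.71, 4.40, 6.99 and 3.98 CPM at 2 mg/kg, and 6.08, 4.01 and 4.05 CPM at 6 mg/kg. At 21D it was 4.68, 0.913, 2.58, 3.10 and 4.38 CPM at 0 mg/kg, 1.57, 1.26, 1.53, 0.914 and 4.36 CPM at 2 mg/kg, and 3.64, 2.03, 2.98, 3.15 and 0.955 CPM at 6 mg/kg. Here the control that stood out was replicate 2, at the low end, and replicate 3 lay between the others. Differences from control of 1.25 ± 0.63, 1.24 ± 0.65 and 1.09 ± 0.68 log2 at 7D 0, 2 and 6 mg/kg did not pass (adjusted p = 0.0775, 0.0921 and 0.160), and those at 21D were -0.22 to 0.49 log2. The 7D differences turned on single controls. Without control replicate 4 they were 2.04, 2.03 and 1.89 log2 and were called (adjusted p = 0.0183, 0.0216 and 0.0358), and without control replicate 2 they were 0.63, 0.62 and 0.48 log2 (adjusted p = 0.363, 0.383 and 0.529). They were also called with limma-trend (1.76, 1.85 and 1.69 log2), with library sizes unscaled by TMM (1.93, 1.87 and 1.75) and with a covariate for the muscle share (2.73, 4.21 and 4.02). Without TMM the median of all genes was itself 0.61 to 0.64 log2 at 7D. The muscle share did not overlap between controls and 7D tendons, so the covariate cannot be told apart from the group difference. The means at 7D were 5.32 ± 2.57 (SD, n = 5), 5.27 ± 1.36 (n = 4) and 4.71 ± 1.19 (n = 3) CPM at 0, 2 and 6 mg/kg, followed by 3.13 ± 1.52 (n = 5) at 21D 0 mg/kg, 2.55 ± 1.07 (n = 5) at 21D 6 mg/kg, 2.28 ± 2.09 (n = 3) in controls and 1.93 ± 1.38 (n = 5) at 21D 2 mg/kg. The step from 7D 6 mg/kg to 21D 0 mg/kg was the only one larger than the larger SD.

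Gata2, the transcription factor, had its highest mean in controls, where it was 4.81, 13.3 and 25.4 CPM in replicates 2, 3 and 4. After 7 days it was 15.6, 10.01, 12.6, 16.1 and 7.92 CPM at 0 mg/kg, 11.2, 10.8, 15.6 and 8.09 CPM at 2 mg/kg, and 9.94, 10.2 and 9.34 CPM at 6 mg/kg. After 21 days it was 16.5, 6.11, 10.1, 7.31 and 10.02 CPM at 0 mg/kg, 6.88, 4.23, 4.99, 4.37 and 10.04 CPM at 2 mg/kg, and 10.5, 7.94, 7.04, 6.21 and 7.57 CPM at 6 mg/kg. The lowest control lay inside or below the range of every repaired group. Gata2 fell against control at 21D, by 1.24 ± 0.37 log2 in the 2 mg/kg group and by 0.88 ± 0.37 in the 6 mg/kg group, with adjusted p of 0.00439 and 0.0408. Both calls were lost without control replicate 4, the highest control, where the differences were -0.64 log2 (adjusted p = 0.144) and -0.26 log2 (adjusted p = 0.586). With library sizes unscaled by TMM they were -0.65 (adjusted p = 0.100) and -0.31 (adjusted p = 0.445). The 6 mg/kg call was also lost without control replicate 3 (-0.91, adjusted p = 0.0654), with limma-trend (-0.60, adjusted p = 0.164) and without any one of 21D 6 mg/kg replicates 2 to 5 (adjusted p = 0.0564 to 0.0803). Without control replicate 2, the lowest control, Gata2 was in addition called lower at 7D 6 mg/kg (-1.03, adjusted p = 0.0242) and 21D 0 mg/kg (-1.004, adjusted p = 0.0149). The other 4 differences were -0.21 to -0.55 log2, were not called, and turned positive with library sizes unscaled by TMM. Group means were 14.5 ± 10.3 CPM (SD, n = 3) in controls, 12.5 ± 3.54 (n = 5), 11.4 ± 3.12 (n = 4) and 9.83 ± 0.452 (n = 3) at 7D 0, 2 and 6 mg/kg, and 10.01 ± 4.02, 6.10 ± 2.44 and 7.86 ± 1.63 (n = 5 each) at 21D 0, 2 and 6 mg/kg. In the order of these means, the step from 7D 6 mg/kg down to 21D 6 mg/kg was larger than the larger SD and the other steps were not.

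Counted together, 1, 2 and 1 of the 7 genes were called against control at 7D 0, 2 and 6 mg/kg, where 71.4, 69.7 and 67.9% of all genes were called, and 1, 2 and 2 were called at 21D 0, 2 and 6 mg/kg, where 65.9, 69.1 and 64.1% of all genes were. The share of called genes among the 7 was below that of the whole table in each comparison. Median log2 differences of the 7 genes were 1.25, 1.17 and 1.09 at 7D 0, 2 and 6 mg/kg and -0.14, -0.49 and 0.52 at 21D, and the median of all genes tested was 0.01 to 0.05.

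Control replicate 3 changed that count. In it Cma1 was 9.85 times, Cpa3 14.6 times, Ms4a2 11.8 times and Fcer1a 37.3 times the higher of the other 2 controls, a ratio reached by 0.303, 0.223, 0.263 and 0.159% of the genes tested. For Kit, Hdc and Gata2 the ratio was 0.985, 0.50 and 0.524. For Fcer1a the counting interval of the ratio to control replicate 4 was 10.1 to 311 (95%, exact binomial, counting error only). Without this tendon 5 of 7 genes were called in each 7D group, 4 at 21D 0 mg/kg and 5 at 21D 2 mg/kg (4 higher and Gata2 lower) and 5 at 21D 6 mg/kg, where 63.0 to 69.5% of all genes were called. Cma1, Ms4a2 and Fcer1a were then higher in 6 of 6 comparisons, and Cpa3 was higher in 4 of 6, beside 30.9 to 35.4% of all genes. Cma1 differed by 2.74 to 4.48 log2 (adjusted p = 0.000205 to 0.00709), Ms4a2 by 1.94 to 3.69 (adjusted p = 0.00101 to 0.0452) and Cpa3 by 2.02 to 4.41, where the 2 differences not called, at 21D 0 and 2 mg/kg, had adjusted p of 0.126 and 0.163. Fcer1a, with 5 counts in the 2 controls left, was 23.2 to 28.1 times as high by summed counts at 7D and 8.69 to 14.8 times at 21D, with the lowest interval bound at 3.67 and the highest at 87.0 (95%, counting error only). At 21D 0 and 2 mg/kg the sign of Ms4a2 and Fcer1a turned from lower to higher. Kit stayed higher in 6 of 6 (1.09 to 1.65 log2), Hdc was called in none, and Gata2 was lower only at 21D 2 mg/kg. The rise of the 4 genes depended on which control was left out. At 7D 0 mg/kg, without control replicate 2 or 4, Cma1 differed by 0.79 and 0.90 log2 and Cpa3 by 0.75 and 0.76. Ms4a2 differed by -0.01 and 0.04 and Fcer1a by 0.19 and 0.23, and none of these was called (adjusted p = 0.359 to 0.988). No label sets control replicate 3 apart from the other controls. Its muscle share was 17.3% and its TMM factor 0.788, at the edges of the control ranges given above and beside 17.5% and 0.737 in control replicate 2. Their part in the result was not tested.

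**Figure D2:**
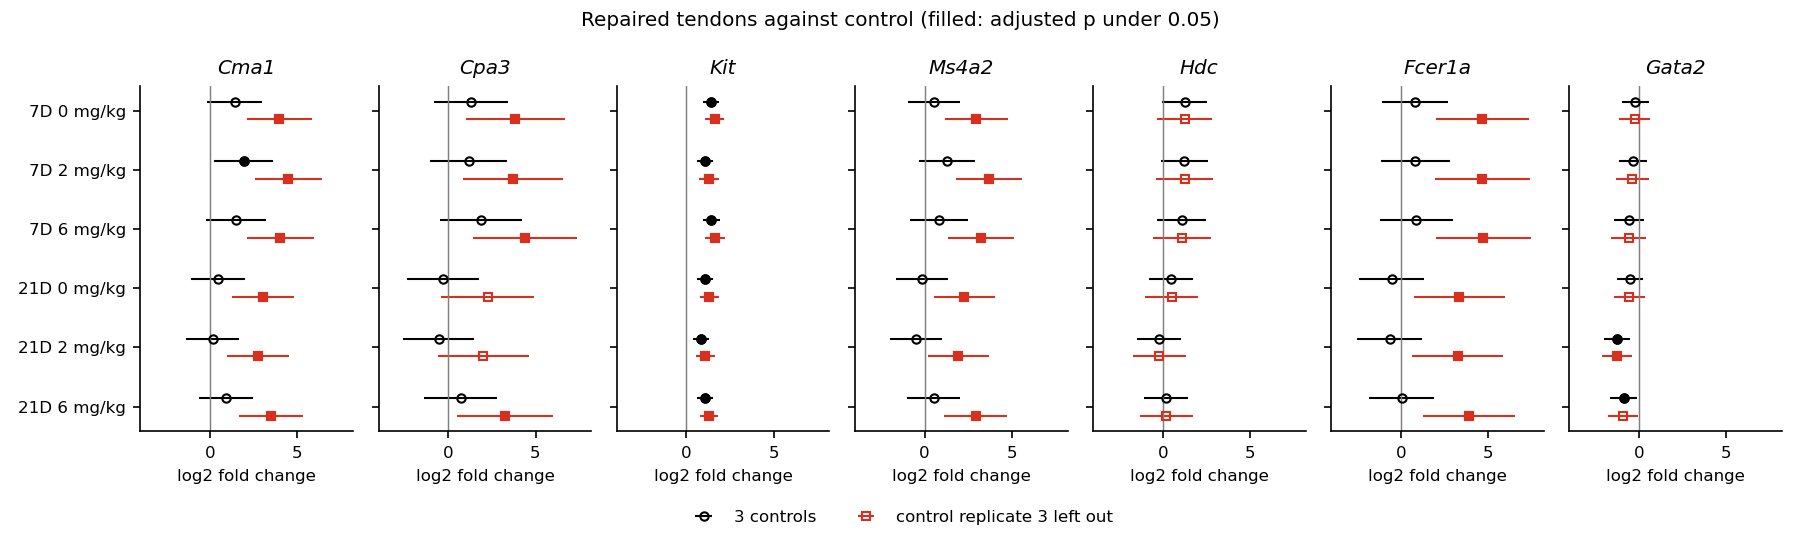
Log2 fold change of each gene in the 6 repaired groups against control, with the 95% interval, for 3 controls (circles) and without control replicate 3 (squares), filled where the adjusted p was under 0.05. Kit keeps its place with and without that tendon, whereas Cma1, Cpa3, Ms4a2 and Fcer1a move to the right by about 2 to 4 log2 units.

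All 7 genes had lower fitted levels at 21D than at 7D at each of the 3 doses, but 0 of 7 were called by the quasi-likelihood test at any dose, beside 5.35, 13.1 and 13.1% of all genes at 0, 2 and 6 mg/kg. Fcer1a passed the low-count filter only through its 7D levels, so its lower level at 21D is not separate evidence of a fall. Differences were -0.31 to -1.61 log2 at 0 mg/kg, -0.22 to -1.78 at 2 mg/kg and -0.30 to -1.17 at 6 mg/kg, where the median of all genes was near 0 (0.00042 to 0.0089). The sign was negative for each gene and dose under every alternative scaling, test and left-out tendon. At 2 mg/kg 4 genes had an unadjusted p under 0.05, namely Ms4a2 (-1.78 ± 0.66, adjusted p = 0.0752), Hdc (-1.46 ± 0.55, adjusted p = 0.0764), Gata2 (-0.91 ± 0.34, adjusted p = 0.0796) and Cma1 (-1.77 ± 0.68, adjusted p = 0.0823). At 0 and 6 mg/kg the number was 0. At 2 mg/kg limma-trend called 2 of the genes, beside 12.5% of all genes, and DESeq2 called 3, beside 18.2%, and at 0 and 6 mg/kg each called 0. Without 21D 2 mg/kg replicate 5, the highest tendon of its group for all 7 genes, 3 were called (Cma1, Hdc and Gata2). Leaving out the highest tendon lowers the 21D level by construction, so these calls are not separate evidence of a fall. The share of all genes called in that fit is not given here. Tendons of 7D and 21D did not overlap for Cma1 and Ms4a2 at 2 mg/kg, for Kit at 0 mg/kg, and for Cpa3, Kit and Hdc at 6 mg/kg, beside 6.85, 17.2 and 21.4% of all genes at 0, 2 and 6 mg/kg.

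GSK2894631A was compared at matched times. At 7D the muscle share was 0.154 to 1.15% at 0 mg/kg and 0.00796 to 0.0104% at 2 and 6 mg/kg, with no overlap. Dose and muscle share therefore cannot be told apart between 0 mg/kg and the other doses at 7D. By the F-test over the 3 doses, 0 of the 7 genes were called at 7D (2.05% of all genes), at 21D (0%) or for a dose effect that differed between the times (0.390%), and 0 had an unadjusted p under 0.05. limma-trend and DESeq2 also called 0. Between pairs of doses 0 of the 7 were called, beside 2.36% of all genes for 2 against 0 mg/kg and 0.390% for 6 against 0 mg/kg at 7D, and 0% for the other pairs. For 2 against 0 mg/kg at 7D the differences ran from -0.33 log2 for Kit (95% interval -0.73 to 0.08) to 0.74 for Ms4a2 (-0.60 to 2.08). For 6 against 0 mg/kg at 7D they ran from -0.34 for Gata2 (-1.12 to 0.44) to 0.58 for Cpa3 (-1.41 to 2.57). At 21D, 2 against 0 mg/kg gave -0.72 for Gata2 (-1.39 to -0.05, adjusted p = 0.548) as the lowest and -0.11 for Fcer1a (-1.74 to 1.52) as the highest, and 6 against 0 mg/kg gave -0.35 for Gata2 (-1.02 to 0.31) and 1.01 for Cpa3 (-0.77 to 2.80). The intervals of Kit exclude a change of 1 log2 unit in either direction between any 2 doses at either time, and those of Cpa3, Ms4a2, Cma1 and Fcer1a do not.

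Within a group, the genes did not vary independently. Deviations of log2 CPM from the group mean were correlated over the 30 tendons for 21 pairs, with 100000 two-sided permutations of tendons within groups and Benjamini-Hochberg adjustment over the pairs. For these pairs, where r and rho are given together, the adjusted p is that of r. The 4 genes Cma1, Cpa3, Ms4a2 and Fcer1a varied together, with Pearson r of 0.834 to 0.965 and Spearman rho of 0.818 to 0.969 in their 6 pairs (adjusted p = 0.000105 to 0.00012). These 4 were set apart after their values were seen. Cma1 and Ms4a2 were the closest (r = 0.965, rho = 0.969). With the 2 tendons farthest from the median left out, r in the 6 pairs was 0.792 to 0.967, and with the 3 controls left out it was 0.799 to 0.967. The 2 tendons were picked by the first gene of a pair, in the order in which the 7 genes were first named. For Cma1 they were control replicates 2 and 3, and the only control left then deviates by 0. For pairs with Cma1 the 2 checks thus gave the same r and are not separate. A second run of high values joined Kit and Gata2 (r = 0.787, rho = 0.746, adjusted p = 0.00012), Hdc and Gata2 (r = 0.80, rho = 0.729, adjusted p = 0.000551) and Kit and Hdc (r = 0.703, rho = 0.675, adjusted p = 0.00504), and r in these was 0.636, 0.657 and 0.492 without the 2 farthest tendons. Hdc was also related to Cma1 (r = 0.764, rho = 0.789, adjusted p = 0.00175), and r was 0.913 without the 2 farthest. Kit or Gata2 with the 4 genes gave r of 0.391 to 0.576, adjusted p of 0.0688 to 0.236 and rho of 0.388 to 0.620 in 8 pairs, of which 0 passed by r and 7 by rho. With the 3 controls left out, Gata2 passed by r with all 4 genes (r = 0.545 to 0.687, adjusted p = 0.00212 to 0.0238), and Kit had r of 0.355 to 0.440 (adjusted p = 0.0717 to 0.182). Differences between these r values were not tested. In all, 12 of 21 pairs passed by r and 20 of 21 by rho. All values of 1 tendon share its library and depth.

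**Figure D3:**
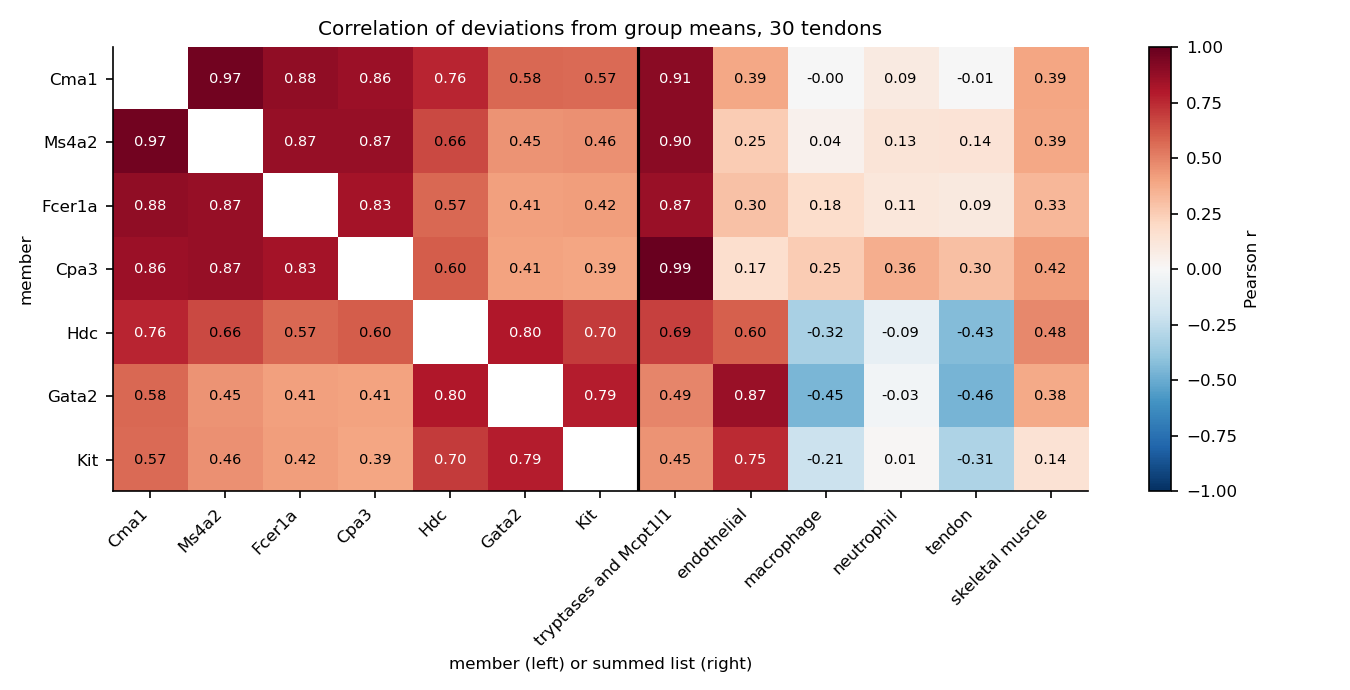
Pearson r of deviations from the group mean over 30 tendons, between the 7 genes (left of the line) and between each gene and the summed CPM of 6 marker lists (right). Cma1, Ms4a2, Fcer1a and Cpa3 form a block of r at 0.83 or above that extends to the tryptases and Mcpt1l1, and Gata2 and Kit have their highest list value with endothelial markers.

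Other mast cell proteases moved with the 4 genes. The sum of the tryptases Tpsab1 and Tpsb2 and the chymase relative Mcpt1l1 had r of 0.905 with Cma1, 0.985 with Cpa3, 0.903 with Ms4a2 and 0.867 with Fcer1a (rho = 0.867 to 0.9751, adjusted p = 0.000105 over 42 relations), 0.686 with Hdc (adjusted p = 0.00364), 0.485 with Gata2 (adjusted p = 0.133) and 0.452 with Kit (adjusted p = 0.208). By rank the relation with Gata2 passed (rho = 0.561, adjusted p = 0.04) and that with Kit did not (rho = 0.491, adjusted p = 0.0847). Markers of endothelium were 7 genes, of which Cdh5 and Kdr are defining members. Their r was 0.866 with Gata2 (rho = 0.758, adjusted p = 0.000336 for both) and 0.750 with Kit (adjusted p = 0.0054). For Kit, rho was 0.572 (adjusted p = 0.0319). Without the 2 farthest tendons, r was 0.762 with Gata2 and 0.455 with Kit. For the 4 genes the r with endothelial markers was 0.166 to 0.388 (adjusted p = 0.549 to 0.79). No gene was related to the macrophage, neutrophil or tendon lists at an adjusted p under 0.05. Hdc was related to the skeletal muscle list by r (0.484, adjusted p = 0.0466) and by rho (0.508, adjusted p = 0.04). Gata2 was by rho (0.494, adjusted p = 0.04) and not by r (0.382, adjusted p = 0.105). The marker lists and these relations were computed with the values known, and their part in the results was not tested.

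**Figure D4:**
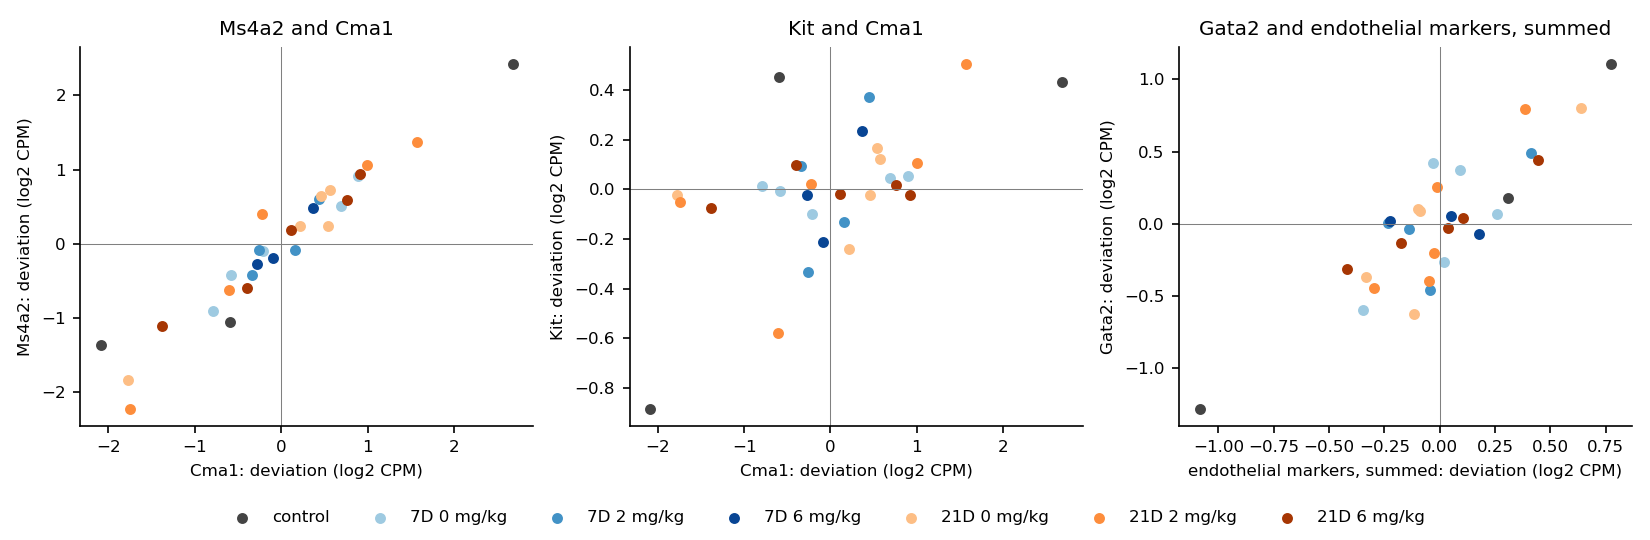
Deviations of log2 CPM from the group mean, 1 point per tendon, for Ms4a2 against Cma1, Kit against Cma1, and Gata2 against summed endothelial markers. Ms4a2 and Cma1 lie along a line in every group (r = 0.965), Kit spreads little where Cma1 spreads widely (r = 0.570), and Gata2 follows the endothelial sum (r = 0.866).

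The genes of the table nearest to each member were listed as a description, by r of the same deviations over 30 tendons. For Cpa3 they were Mcpt1l1 (0.980), Tpsb2 (0.956) and Mrgprb3 (0.944), a gene of the Mas-related receptor family. For Cma1 they were Ms4a2 (0.965), Mcpt1l1 (0.904) and Fcer1a (0.883). Ms4a2 was nearest to Cma1, Mcpt1l1 (0.896) and Tpsab1 (0.895), and Fcer1a to Cma1, Tpsab1 (0.869) and Ms4a2 (0.867). For Kit they were the chemokine Cxcl12 (0.835), the nerve growth factor receptor Ngfr (0.816) and Gata2 (0.787), for Hdc they were Gata2 (0.80), Cma1 (0.764) and Zfp524 (0.740), and for Gata2 they were the endothelial cadherin Cdh5 (0.884), the VEGF receptor Kdr (0.880) and Arhgef15 (0.875). Of the 3 nearest genes, all were members or other mast cell genes for Cma1, Ms4a2 and Fcer1a, and none were for Gata2.

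The balance between the 2 proteases also varied. Cpa3 made up a median 33.2% of the summed counts of Cpa3 and Cma1, but the share ran from 6.32% (11 of 174 counts, 95% exact binomial interval 3.20 to 11.03%) in a 21D 2 mg/kg tendon to 54.5% in control replicate 2 (36 of 66 counts, 41.8 to 66.9%). Among 7D 2 mg/kg tendons it was 8.80% (7.56 to 10.2%) in replicate 2 and 40.8% (38.9 to 42.6%) in replicate 3, although Cma1 was 63.8 and 45.1 CPM there. The share of Ms4a2 in the counts of Ms4a2 and Cma1 was 9.94 to 20.9% in all tendons but control replicate 2 (33.3%, 20.0 to 49.0%, 15 of 45 counts), with a median of 15.2%. Since both counts come from 1 library, these shares do not depend on the scaling between libraries, and the intervals cover counting error only.

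**Figure D5:**
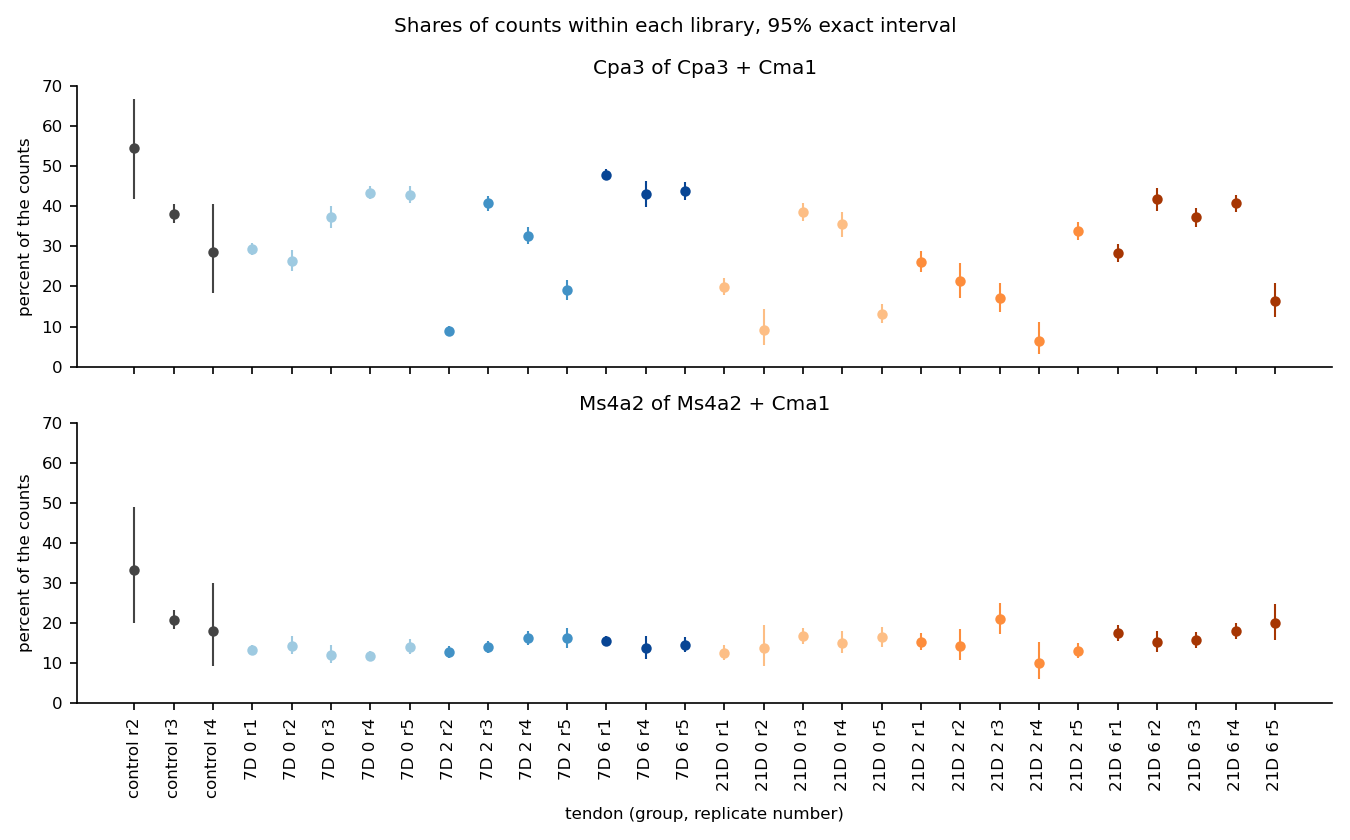
Share of Cpa3 in the counts of Cpa3 and Cma1 (top) and of Ms4a2 in the counts of Ms4a2 and Cma1 (bottom) in each tendon, with 95% exact binomial intervals. The Ms4a2 share ranges from 9.94 to 33.3% and the Cpa3 share from 6.32 to 54.5%, and in both panels some intervals of tendons in 1 group do not overlap.

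The same tendons were low or high for most of the genes. Control replicate 2 was among the lowest 5 of 30 tendons for 7 of 7 genes, and 21D 0 mg/kg replicate 2 and 21D 2 mg/kg replicate 4 were for 6 each. At the other end, 7D 0 mg/kg replicates 1 and 4 and 7D 2 mg/kg replicate 4 were among the highest 5 for 6 genes each. No 21D tendon was among the highest 5 for more than 2 genes.

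Genes with roles beside the 7 were read from the same fit. Of the other mast cell proteases on the list, 4 of 12 were in the table, the tryptases Tpsab1 and Tpsb2, Mcpt1l1 and the granule protease activator Ctsc. Tpsab1, Tpsb2 and Mcpt1l1 were called in 0 of 6 comparisons with control, with log2 differences of 0.22 to 1.77, -0.60 to 0.93 and -0.09 to 1.80. Without control replicate 3, Tpsab1 and Mcpt1l1 were called higher in the 3 groups at 7D and at 21D 6 mg/kg, and Tpsb2 at 7D 2 mg/kg (2.69 ± 1.10 log2, adjusted p = 0.0336). Tpsab1 was 4.49 ± 5.18 CPM (SD, n = 3) in controls, 11.1 ± 6.32 (n = 5), 15.7 ± 4.86 (n = 4) and 10.9 ± 0.992 (n = 3) at 7D 0, 2 and 6 mg/kg, and 5.33 ± 3.59, 5.78 ± 6.40 and 7.81 ± 4.43 (n = 5 each) at 21D. Ctsc, which activates granule proteases in many leukocytes, was higher in 4 of 6, and lost its call at 7D 2 and 21D 6 mg/kg without control replicate 2 (adjusted p = 0.0544 and 0.128) and the latter also without control replicate 4 (0.0599). Beside this and the counts that follow, 35.8, 35.8 and 34.1% of all genes were called higher at 7D 0, 2 and 6 mg/kg, and 32.2, 33.8 and 30.8% at 21D.

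The IgE receptor's signalling partners rose broadly. Besides Fcer1a and Ms4a2, 12 of 12 listed genes were tested, and 11, all but Gab2, were higher than control in all 6 repaired groups, with list medians of 1.16 to 1.97 log2. They included Fcer1g, the gamma chain shared with other Fc receptors (1.47 to 2.37 log2, 40.7 ± 16.5 CPM in controls, n = 3, and 183 ± 49.4 at 7D 0 mg/kg, n = 5), the kinase Syk (1.90 to 2.58) and the adaptor Lat2 (2.26 to 3.16). These partners are expressed by macrophages and other leukocytes. Without control replicate 4, Btk lost its calls at 21D (adjusted p = 0.0530, 0.0800 and 0.243), and Lyn and Plcg2 theirs at 21D 6 mg/kg (0.0696 and 0.0728). Lyn also lost that call without control replicate 3 (adjusted p = 0.0509), and Plcg1 its call at 7D 2 mg/kg without control replicate 2 (0.153). Macrophage markers were higher for 5, 5 and 8 of 8 genes at 7D 0, 2 and 6 mg/kg and for 3, 3 and 2 of 8 at 21D. Without control replicate 3 these counts were 5, 5 and 6 and then 2, 2 and 2, where 11 or 12 of the 12 partners were higher in each group. Summed macrophage markers were 348 to 1402 CPM in controls, 1167 to 3216 at 7D and 695 to 2101 at 21D, and their part in the result was not tested.

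Among growth and survival genes 8 of 11 were tested besides Kit. Kitlg, which encodes SCF, the ligand of KIT, fell against control at 21D 2 mg/kg (-1.21 ± 0.29 log2, adjusted p = 0.000711), from 68.0 ± 33.6 CPM (SD, n = 3) to 29.3 ± 7.51 (n = 5), and was called in no other comparison with control. Without control replicate 2 it was also called lower at 7D 2, 21D 0 and 21D 6 mg/kg (-0.69, -0.87 and -0.90 log2). Il1rl1, the receptor of IL-33, rose in 6 of 6 (2.52 to 4.71 log2), from 2.98 ± 2.01 CPM (n = 3) in controls to 81.1 ± 41.5 (n = 5) at 7D 0 mg/kg and 17.7 ± 10.3 (n = 5) at 21D 0 mg/kg. The cytokine receptor chains Il3ra and Csf2rb rose in 6 of 6 as well, and Csf2rb lost its call at 21D 2 and 6 mg/kg without control replicate 4 (adjusted p = 0.162 and 0.137). Stat5b fell in 6 of 6 (-0.77 to -1.05 log2).

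Of 12 granule and mediator genes tested besides Hdc, the granule membrane gene Cd63 and the vesicle gene Vamp8 were higher in 6 of 6 comparisons, and both are expressed by most cells. Srgn, the core protein of granule proteoglycan, was higher in the 3 groups at 7D (1.01 to 1.13 log2) and was called at no dose at 21D. Hpgds, the target of GSK2894631A and the prostaglandin D synthase of mast cells, was 4.03 ± 3.23 CPM (SD, n = 3) in controls, 1.48 ± 0.520 (n = 5) at 7D 0 mg/kg and 2.03 to 2.80 CPM in the other 5 groups. It passed the filter on low counts only through the controls, and did not pass without control replicate 2 or 3, so no change is read from its test. Slc18a2, which loads histamine into granules, and Tph1 were called in none.

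Among transcription factors 8 of 9 were tested besides Gata2. Spi1, Runx1, Lyl1 and Lmo2, which act in many blood lineages, rose in 6 of 6, and Mitf, a factor of mast cells and melanocytes, rose in both 2 mg/kg groups, by 0.78 ± 0.26 log2 at 7D and 0.67 ± 0.25 at 21D, with adjusted p of 0.0113 and 0.0218. Both Mitf calls were lost without control replicate 4 (adjusted p = 0.0953 and 0.180), as was that of Spi1 at 21D 6 mg/kg (0.0797). Of the histamine receptor and breakdown genes 2 of 6 were in the table and neither passed the filter on low counts.

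Markers of cells that share members with mast cells were read beside these results. Of 6 basophil markers 1 was listed, Il3ra, and of 6 eosinophil markers 0 were. Endothelial markers, 7 of 8 listed, were higher for 3, 2 and 2 genes at 7D 0, 2 and 6 mg/kg and lower for 3 at 21D 2 mg/kg (1 without control replicate 3), where Gata2 was also lower, with summed levels of 206 to 749 CPM in controls and 306 to 491 CPM at 21D 2 mg/kg. Neutrophil markers, 4 of 7 listed, had summed levels of 4.49 to 14.7 CPM in controls and 10.7 to 106 CPM at 7D, and 4 dendritic cell markers had 6.62 to 14.4 and 18.3 to 58.6 CPM. Melanocyte markers, 2 of 5 listed, summed to 1.32 to 2.12 CPM in controls and 2.96 to 21.2 CPM in repaired tendons, and progenitor markers, 4 of 5 listed, to 107 to 271 and 245 to 401 CPM, with Kit also higher in repaired tendons. Their part in the levels of Kit, Gata2, Hdc and Fcer1a was not tested.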

How the data were processed

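RNA from the right plantaris tendon of 30 rats was sequenced (50-base single-end reads). In the study's methods the authors used fastp for trimming and STAR for mapping to rn6, and counted reads in exons of Ensembl release 95. The deposited table holds these raw counts for 13124 genes. A second deposited table holds the authors' own log2 fold changes, average log2 CPM, p-values and FDR, of which none were used, and the chromosome and width (other) of each gene, which were. Strandedness of the counting is not given in the sources used here, and chymase and tryptase relatives may share reads. The 7D 6 mg/kg group has 3 tendons in the labels, which were followed.

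Counts were fitted with edgeR 4.0.16 in R 4.3.3 (quasi-likelihood, TMM, all 30 tendons in 7 groups). A gene was kept when the mean of 1 or more groups reached 3 CPM (12558 tested, 566 removed), and the fit was tested on simulated data. Pairs were correlated on log2 CPM with a prior count of 2. DESeq2 1.42.0, limma 3.58.1 and other settings were alternatives. Labels do not say more than that replicates are separate samples of a group. The members, gene lists and marker lists were chosen with earlier results of these data known. The relations to marker lists, count shares, Fcer1a ratios and the correlations without controls were added after these values were seen. Genes were named by membership, by list, and as the 3 nearest to each member.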

Additional observations from a re-analysis of the deposited data

Results flagged for a closer look

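Dixon's criterion was applied to groups of 4 or 5 tendons, and so not to controls or 7D 6 mg/kg, with 3 tendons each. In these 35 combinations of gene and group, 2 held a tendon that stood far from the rest of its group, where chance gives about 1 in 20. Cma1 was 5.29 CPM in 21D 0 mg/kg replicate 2, where the next lowest tendon was 21.3 CPM and the other tendons averaged 25.02 CPM. Hdc was 4.36 CPM in 21D 2 mg/kg replicate 5, where the next highest tendon was 1.57 CPM and the others averaged 1.32 CPM. The first tendon was among the lowest 5 of all 30 for 6 of the 7 genes.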

How the results depend on the processing

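The number of the 7 genes called against control moved with the setting. With library sizes unscaled by TMM it was 3 at each 7D dose, 1 at 21D 2 mg/kg and 1 at 21D 6 mg/kg. Of all genes, 78.8, 76.2 and 75.8% were called at 7D 0, 2 and 6 mg/kg, and 74.5 and 71% at 21D 2 and 6 mg/kg. That setting moved the median log2 difference of all genes to 0.64 at 7D 0 mg/kg and 0.59 at 21D 0 mg/kg, and the share of calls that were higher from 50.1 to 75.6% and from 48.9 to 77.9%. With limma-trend the number was 4, 5 and 5 at 7D 0, 2 and 6 mg/kg, beside 72.2, 70.3 and 69.1% of all genes. With a covariate for the muscle share it was 3, 1 and 2 at 7D 0, 2 and 6 mg/kg and 1 at 21D 2 and 6 mg/kg, where calls over all genes fell to 1348 at 7D 2 mg/kg and 1404 at 7D 6 mg/kg. The shares of all genes called were 49.1, 10.7 and 11.2% at 7D 0, 2 and 6 mg/kg, and 57 and 52% at 21D 2 and 6 mg/kg. With only the groups compared it was 1 at 7D 2 mg/kg, 0 at 21D 2 mg/kg and 1 at 21D 6 mg/kg, beside 53.2, 59.9 and 50.8% of all genes. Leaving out each tendon in turn gave 1 to 5 at each of the 7D doses, 1 to 4 at 21D 0 mg/kg, 1 to 5 at 21D 2 and 6 mg/kg, and 0 to 3 for 21D against 7D at 2 mg/kg. The share of all genes called against control was 63.0 to 69.5% without control replicate 3. For the other left-out tendons it is not given here, so these counts are not read as a result about the 7 genes. For 21D against 7D at 2 mg/kg, 2 genes were called with limma-trend, 3 with DESeq2 and 3 with the covariate, beside 12.5, 18.2 and 14.1% of all genes. The cause of these changes was not tested.

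Without control replicate 3, Ms4a2 turned to 2.28 and Fcer1a to 3.36 log2 at 21D 0 mg/kg, and Ms4a2 to 1.94 and Fcer1a to 3.26 at 21D 2 mg/kg. Leaving out each tendon in turn, these 4 values ran from -0.69 to 2.28, -1.12 to 3.36, -1.05 to 1.94 and -1.54 to 3.26. Kit was called in 97 of 99 alternatives, and lost its call at 7D 2 mg/kg with the covariate (adjusted p = 0.0644) and at 21D 2 mg/kg with only the groups compared (adjusted p = 0.0566). Of 1827 recomputed log2 differences, 94 changed sign without being called. With the replicate number as a block, 4 genes were called at 7D 2 mg/kg against control, beside 69.1% of all genes. For 21D against 7D at 2 mg/kg that setting called 4, beside 12.1% of all genes. Tendons with the same number had a median r of 0.0068 (76 pairs, -0.70 to 0.68). Tendons with different numbers had a median r of 0.0088 (307 pairs, -0.67 to 0.78). With ranges this wide, these values cannot tell whether some numbers mark tendons handled together. Values near the floor of 3 counts, as for Fcer1a in controls, are limited by depth.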
